A study of Mus musculus with 18 samples.

Results

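Gene expression in mouse G1E-ER4 cells after 30 h in estradiol was compared with that before estradiol, using the 6 arrays of these times out of 18 in the series. The arrays of each time were chosen by their titles, and the comparison covered all probe sets that the platform annotation ties to 1 gene, 34958 of 45101. A probe set is the group of short probes that reads 1 transcript on an Affymetrix array. Of these, 23632 passed a filter on low values and were tested, and they stood for 12728 genes. The series followed the cells for 0, 3, 7, 14, 21 and 30 h in estradiol, with 3 arrays per time. G1E cells are an immortal line of mouse erythroid precursors made from embryonic stem cells with a disrupted Gata1 gene, and the ER4 clone carries GATA1 fused to the ligand-binding domain of the estrogen receptor. Both groups carry the disrupted gene and the fusion. They differ in that the 0 h group had no estradiol and the 30 h group had 20 nM. Arrays of cells kept for 30 h without estradiol were not analysed here, so activation of the fusion, other effects of estradiol and time in culture cannot be told apart.

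GATA1 is the zinc finger transcription factor on which red cell and platelet formation depend, and it both activates and represses genes through GATA sites. As erythroid precursors mature they make hemoglobin and membrane proteins, leave the cell cycle, shed their progenitor programme and later lose their mitochondria and nucleus. In G1E-ER4 cells estradiol moves the fusion protein to its targets and starts this course.

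By 30 h more than 2 in 3 tested genes had moved. Among 23632 probe sets, 8090 were higher (34.2%) and 8293 lower (35.1%) at 30 h, by limma's moderated test with Benjamini-Hochberg adjustment over all of them and a threshold of 0.05. Counted as genes, each read by its brightest tested probe set, 4622 of 12728 rose (36.3%) and 4167 fell (32.7%). For 8466 genes (66.5%) the change was called and the 3 arrays of one time did not overlap those of the other. Most changes were small. The median change was 0.61 among genes that rose and -0.81 among genes that fell, on the log2 scale where 1 is 2-fold. At least 2-fold changes were called for 1165 rises (9.15%) and 1664 falls (13.1%). At least 4-fold changes numbered 267 rises (2.1%) and 516 falls (4.05%), and at least 16-fold changes 32 rises (0.251%) and 61 falls (0.479%). Falls thus outnumbered rises among large changes, while rises were the majority of all called genes.

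That majority depended on the scaling and on the filter. With the deposited scale the median change of all genes was 0.09 and 52.6% of called genes were higher. Scaling each array to its hybridisation controls, RNAs added in fixed amounts before hybridisation, moved that median to 0.30 and the share to 65.5%, with 4832 genes higher and 2546 lower. A stricter filter, at the 60th percentile, gave 46.9%. Small changes are therefore relative to the authors' own scale. Means of the hybridisation controls were 11.67, 12.05 and 12.12 on the 0 h arrays and 11.89, 11.57 and 11.77 on the 30 h arrays. They overlapped between the times and differed between replicates, so control scaling also added spread between replicates. The part of that spread in the calls lost with control scaling was not tested. The split also differed by signal. Among the 3926 genes with a mean level under 5, 32.7% rose and 10.3% fell, while between 9 and 11 the shares were 40.3% and 41.98% of 3054 genes. The median SD between the 3 arrays was 0.113 at 0 h and 0.108 at 30 h. The array titles speak of biological replicates without stating separate cultures. The p-values therefore measure only how far these samples spread, and that spread may be technical.

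**Figure D1:**
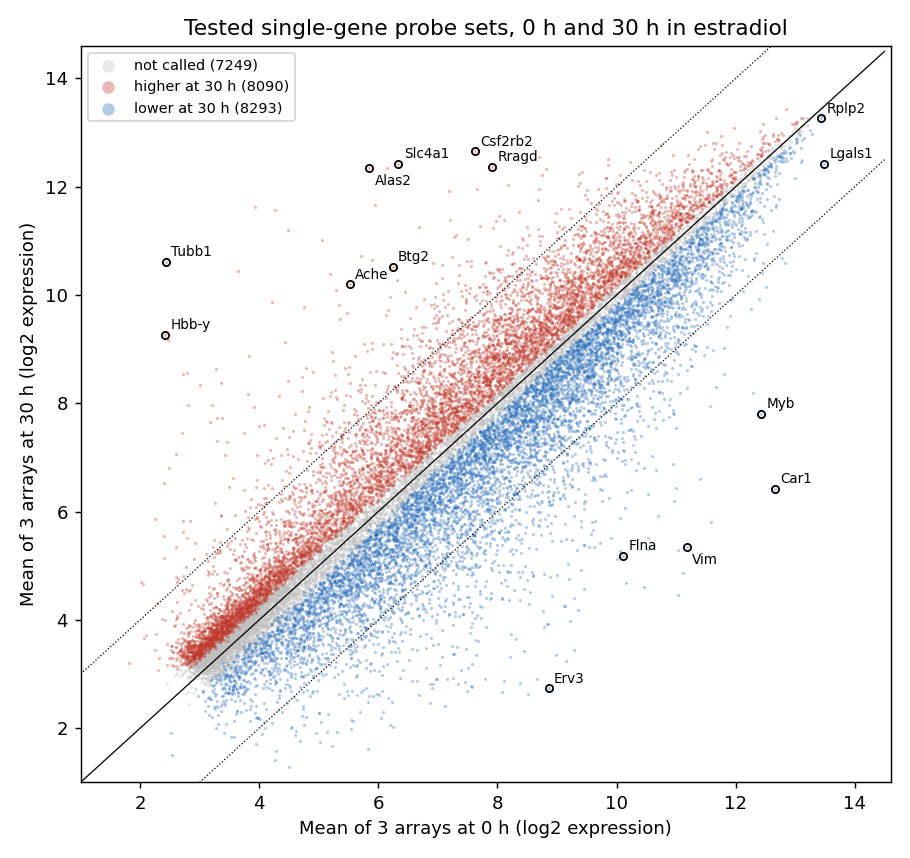
Mean log2 expression of each tested single-gene probe set on the 3 arrays at 30 h (vertical axis) against the 3 arrays at 0 h (horizontal axis), coloured by call, with dotted lines at a 4-fold difference. Higher (8090) and lower (8293) probe sets lie on both sides of the diagonal, and the farthest points include Tubb1 and Alas2 above it and Car1 and Vim below it.

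The largest rises among genes measured at a mean of 5 or more at both times began with heme synthesis and membrane genes and went on to a mixed set of transport, signalling and growth arrest genes. Alas2, the erythroid form of the first heme synthesis enzyme, had log2 levels of 5.64, 5.94 and 5.96 at 0 h and 12.31, 12.34 and 12.37 at 30 h. Slc38a5, a transporter of glutamine, glycine and other neutral amino acids, stood at 5.06, 4.93 and 5.16 at 0 h and 10.98, 11 and 11.04 at 30 h. Evi5l, which encodes a GTPase-activating protein for Rab proteins, stood at 5.14, 5.12 and 5.28 at 0 h and 10.48, 10.22 and 10.45 at 30 h. In each of these genes every 30 h array lay far above every 0 h array. Their changes were 6.49 ± 0.08, 5.96 ± 0.09 and 5.20 ± 0.15 (log2, SE), or 90.0-fold, 62.2-fold and 36.8-fold, with limma adjusted p = 1.81e-17, 4.83e-17 and 6.31e-14.

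The 200 bases before the annotated start of these 3 genes are shown because they are the highest-ranked rises with a RefSeq promoter entry, and those of Vim, Ptprs and Fzd7, described further on, because they are the highest-ranked falls with one. Sequences are from RefSeq on GRCm38.p6, 5′ to 3′ on the gene's strand, and capitals mark a GATA match (AGATAA or TGATAA, either strand).
Alas2: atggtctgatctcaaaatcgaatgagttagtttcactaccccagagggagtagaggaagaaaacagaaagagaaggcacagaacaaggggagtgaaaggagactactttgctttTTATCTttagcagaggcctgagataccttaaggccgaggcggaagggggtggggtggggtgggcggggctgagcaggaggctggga
Slc38a5: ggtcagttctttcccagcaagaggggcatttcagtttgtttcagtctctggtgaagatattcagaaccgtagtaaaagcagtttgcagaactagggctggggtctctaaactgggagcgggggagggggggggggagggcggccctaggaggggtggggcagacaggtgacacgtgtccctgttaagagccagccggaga
Evi5l: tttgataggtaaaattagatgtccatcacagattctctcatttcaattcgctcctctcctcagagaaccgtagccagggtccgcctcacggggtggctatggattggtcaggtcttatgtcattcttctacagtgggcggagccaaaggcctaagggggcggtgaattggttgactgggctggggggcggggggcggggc
Vim: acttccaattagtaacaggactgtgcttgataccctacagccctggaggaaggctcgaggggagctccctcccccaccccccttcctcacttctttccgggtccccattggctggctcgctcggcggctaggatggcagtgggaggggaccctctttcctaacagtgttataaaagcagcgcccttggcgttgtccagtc
Ptprs: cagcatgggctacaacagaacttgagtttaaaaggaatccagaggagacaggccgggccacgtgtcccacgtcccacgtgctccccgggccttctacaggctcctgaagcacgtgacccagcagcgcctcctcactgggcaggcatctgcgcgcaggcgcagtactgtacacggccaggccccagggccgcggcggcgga
Fzd7: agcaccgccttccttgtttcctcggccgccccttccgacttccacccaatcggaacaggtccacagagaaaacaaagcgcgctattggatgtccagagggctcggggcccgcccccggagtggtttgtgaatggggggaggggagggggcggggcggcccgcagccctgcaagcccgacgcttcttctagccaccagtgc
The windows lie at chrX:150547217-150547416, plus strand for Alas2, chrX:8271181-8271380, plus strand for Slc38a5, chr8:4166367-4166566, plus strand for Evi5l, chr2:13574111-13574310, plus strand for Vim, chr17:56476481-56476680, minus strand for Ptprs and chr1:59481947-59482146, plus strand for Fzd7. The Alas2 window holds 1 match, which starts 86 bases before the start site, and the other 5 windows hold none, which says only that these letters are not in them. Ptprs has 2 promoter entries, of which the first is shown. GC content of the printed windows ran from 52.0% in Alas2 to 66.0% in Fzd7.

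Among the other large rises, Slc4a1, the band 3 anion exchanger, Btn1a1, a butyrophilin best known from milk fat globules, and Csf2rb2, the beta chain of the mouse interleukin 3 receptor, rose by 6.08 ± 0.08, 5.70 ± 0.09 and 5.03 ± 0.07 (log2, SE). Rragd encodes a Rag GTPase that brings amino acid signals to mTOR at the lysosome, and its levels were 7.77, 7.96 and 8.0 at 0 h and 12.36, 12.34 and 12.40 at 30 h. Btg2, an antiproliferative gene and p53 target, had levels of 6.38, 6.38 and 5.96 at 0 h and 10.55, 10.54 and 10.48 at 30 h. Ache, acetylcholinesterase, an enzyme also carried on red cells, stood at 5.38, 5.52 and 5.65 at 0 h and 10.20, 10.10 and 10.30 at 30 h. Groups without overlap were a condition of the choice of the largest rises and falls. These 3 genes rose 21.96-fold, 19.5-fold and 25.7-fold (limma adjusted p = 4.83e-17, 7.1e-15 and 1.42e-15).

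Kalrn, which encodes kalirin, Rogdi, whose human form is mutated in a syndrome of the brain and tooth enamel, and Ypel3, a yippee-like gene linked to growth arrest, rose by 4.80 ± 0.13, 5.01 ± 0.08 and 4.58 ± 0.07 (log2, SE). Tmem120b, Fam214b and Plekho2 rose by 4.46 ± 0.09, 4.20 ± 0.10 and 4.19 ± 0.09. These genes did not move in step. Tmem120b already had a mean level of 9.26 at 14 h against 9.81 at 30 h, while Fam214b stood at 6.13 at 14 h, little above its 5.36 at 0 h, and reached 9.56 at 30 h.

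The largest falls took in structural, adhesion and receptor genes. Vim, the intermediate filament vimentin, had log2 levels of 11.12, 11.17 and 11.25 at 0 h and 5.51, 5.15 and 5.36 at 30 h. Ptprs, a receptor tyrosine phosphatase, stood at 10.50, 10.49 and 10.57 at 0 h and 5.22, 5.28 and 5.42 at 30 h. Fzd7, a Wnt receptor, stood at 10.52, 10.59 and 10.46 at 0 h and 5.51, 5.45 and 5.57 at 30 h. Every 30 h array lay below every 0 h array by more than 4 log2 units in all 3 genes. They fell 57.3-fold, 37.1-fold and 32.4-fold (limma adjusted p = 5.78e-16, 5.36e-17 and 2.76e-14). The other 2 tested probe sets of Ptprs changed by -0.53 and 0.17, so its fall was read by its brightest probe set and not to that extent by the others.

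Flna, the actin crosslinker filamin A, had levels of 10.14, 10.03 and 10.15 at 0 h and 5.21, 4.93 and 5.41 at 30 h. Lgals9, a galectin that binds sugars at the cell surface, had levels of 10.73, 10.69 and 10.69 at 0 h and 5.81, 5.93 and 6.00 at 30 h. Tgm2, the transglutaminase that crosslinks proteins, stood at 11.03, 11.01 and 10.97 at 0 h and 6.62, 5.91 and 6.76 at 30 h, the widest 30 h spread of these falls. They fell 30.3-fold, 27.6-fold and 23.8-fold, with no overlap between the groups, as the choice of genes required. Car1, carbonic anhydrase 1, and Nefh, the heavy neurofilament, fell, with changes of -6.24 ± 0.07 and -5.74 ± 0.07 (log2, SE). Kit, the stem cell factor receptor, and Myb, a transcription factor of progenitors, fell, with changes of -4.77 ± 0.13 and -4.62 ± 0.07. Slc19a1, the reduced folate carrier, stood at 9.55, 9.49 and 9.59 at 0 h and 5.54, 5.12 and 5.41 at 30 h, an 18.3-fold fall. Gsta4, a glutathione transferase, Clec4d, a C-type lectin receptor, Abhd14a and Ydjc fell, with changes of -4.31 ± 0.12, -4.21 ± 0.10, -4.39 ± 0.10 and -4.26 ± 0.10. The 30 h levels of most of these falls lay near 5 to 6, where the replicate SD was larger. Its median over the 15 falls was 0.0498 at 0 h and 0.183 at 30 h. No other tested probe set of the 15 rises and 15 falls was called in the opposite direction.

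**Figure D2:**
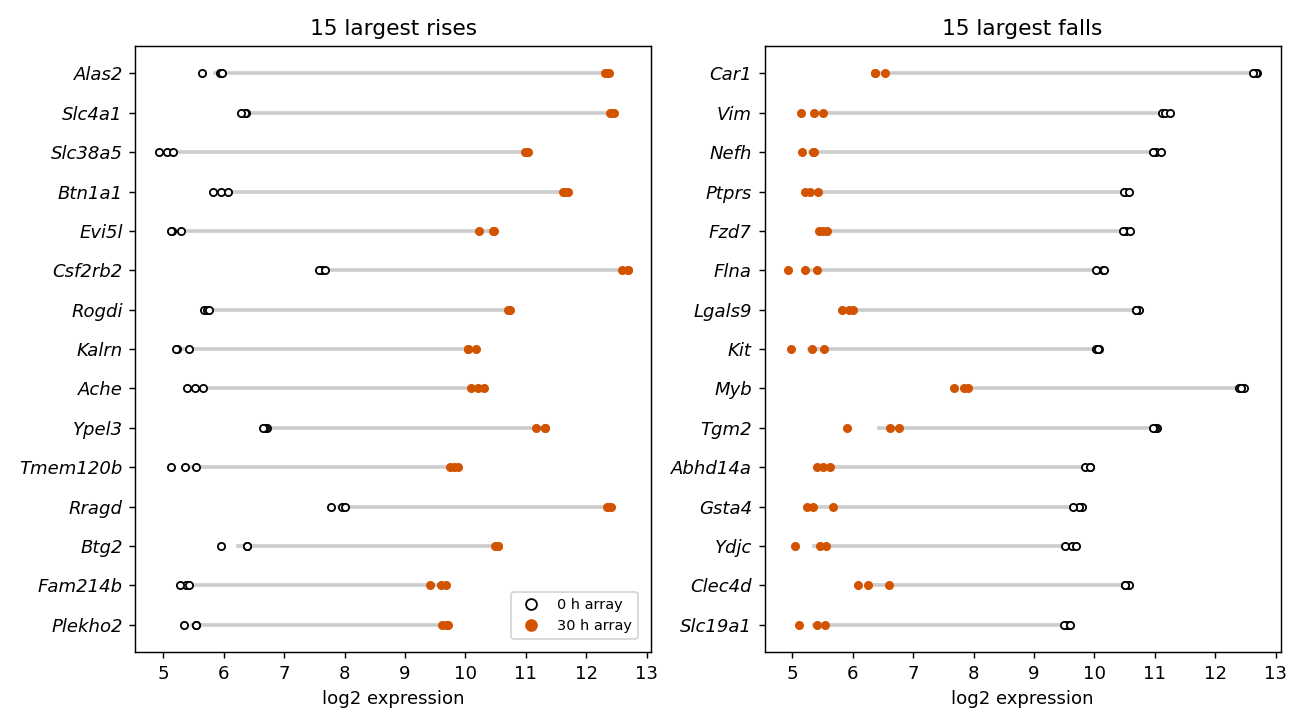
Log2 expression on each of the 3 arrays at 0 h (open points) and 3 arrays at 30 h (filled points) for the 15 largest rises (left) and 15 largest falls (right) among genes with means of 5 or more at both times. In every gene shown the arrays of the 2 times are separate, which was a condition of the choice of genes.

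Few genes crossed the range from background, taken here as an array's 40th percentile, to clear signal. Only 4 named genes lay under the arrays' 40th percentile on all 3 arrays at 0 h and over the 70th percentile on all 3 at 30 h, while 15 did the reverse. Those percentiles ran from 3.22 to 3.35 and from 6.57 to 6.79. Strip2, a component of striatin phosphatase complexes, stood at 2.47, 2.63 and 2.71 at 0 h and 7.00, 7.13 and 7.07 at 30 h. Tbx6, a T-box transcription factor known from the embryo's mesoderm, stood at 3.09, 3.20 and 3.23 at 0 h and 7.75, 7.47 and 7.73 at 30 h. Tubb1, the beta tubulin of platelets, and Hbb-y, an embryonic beta-like globin, had means of 2.43 ± 0.37 at 0 h and 10.62 ± 0.02 at 30 h and of 2.42 ± 0.54 at 0 h and 9.26 ± 0.06 at 30 h (log2, SD, n = 3). The arrays of the 2 times were far apart in all 4 genes. Since the 0 h values give only a bound, each difference was taken from the 40th percentile of the 0 h arrays. It was at least 14.2-fold for Strip2, 21.3-fold for Tbx6, 167-fold for Tubb1 and 65.2-fold for Hbb-y (limma adjusted p = 3.71e-14, 7.58e-10, 7.87e-17 and 4.53e-11).

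Of the 15 genes that went the other way, the 8 with the highest 0 h level were Erv3, Marcksl1, Sowaha, Cnnm1, Cpa3, Dctd, Cd109 and Nebl. Dctd, which deaminates dCMP on the way to thymidine nucleotides, had levels of 7.92, 7.78 and 7.67 at 0 h and 2.93, 3.02 and 2.75 at 30 h. Cd109, a surface antigen held by a lipid anchor, stood at 7.62, 7.60 and 7.5 at 0 h and 2.87, 2.67 and 2.73 at 30 h. Cnnm1, of a family tied to magnesium transport, stood at 8.17, 8.04 and 8.10 at 0 h and 3.01, 2.88 and 2.72 at 30 h. All 30 h values of these 3 genes lay under the arrays' 40th percentile, so the falls are bounds, at least 22.2-fold, 19.1-fold and 27.6-fold (limma adjusted p = 5.79e-14, 1.24e-13 and 5.62e-16). In cells measured in bulk, fewer cells that express a gene and less RNA per cell cannot be told apart.

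The 8 brightest called genes lay near the top of the range of the arrays. The median absolute change was 0.34 among genes with a mean level of 11 or more, against 0.57 to 0.69 between 5 and 11, and a limit set by saturation was not tested. Lgals1, galectin 1, had log2 levels of 13.49, 13.48 and 13.48 at 0 h and 12.37, 12.52 and 12.40 at 30 h, a fall of 1.06 ± 0.06 (SE), which was the largest of the 8 brightest. Sephs2, which makes the selenium donor for selenoproteins, fell by 0.63 ± 0.05 and Ran, the GTPase of nuclear transport, by 0.26 ± 0.05. Selenow, a small selenoprotein, rose by 0.17 ± 0.05. Of these 8 only Lgals1 stayed called with control scaling, where Rplp2, which had fallen by 0.17 ± 0.05, turned to a change of 0.031 (limma adjusted p = 0.902).

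Genes of RNA decay and translation were examined as lists, each read beside the shares of all genes given above. The RNA exosome, the nuclease complex that trims ribosomal and other RNAs, was lower almost throughout. Of its 13 genes 12 fell and 1 rose, with a median of -1.51 against 0.09 for all genes. The falls of at least 2-fold numbered 8. Dis3, a catalytic subunit, had levels of 10.64, 10.56 and 10.66 at 0 h and 8.61, 8.46 and 8.61 at 30 h. Exosc5 and Exosc2, of the ring and cap, fell, with changes of -1.95 ± 0.08 and -1.91 ± 0.07 (log2, SE). Exosc9 alone rose, by 0.20 ± 0.06. Control scaling left 11 of 13 lower and 0 higher, with a median of -1.31.

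The list of translation elongation and termination fell in part. Its 10 genes include some, such as Eef1e1 and Eef2k, that are not themselves such factors. Of the 10, 7 fell and 0 rose, with a median of -0.59 (-0.38 with control scaling, where 4 were lower). Eef1e1, a scaffold of the synthetase complex, Eef2k, the kinase that inhibits elongation factor 2, and Gspt1, a release factor, fell, with changes of -2.18 ± 0.11, -1.47 ± 0.09 and -1.23 ± 0.06. Eef1a1, the main elongation factor, had means of 13.14 ± 0.02 at 0 h and 13.13 ± 0.02 at 30 h (SD, n = 3). Of 21 cytosolic tRNA synthetase genes 12 fell and 3 rose, with a median of -0.37, and with control scaling 4 were lower and 2 higher. Kars, Farsb and Vars, for lysine, phenylalanine and valine, fell, with changes of -0.97 ± 0.07, -0.91 ± 0.05 and -0.85 ± 0.10. Aars, for alanine, rose by 0.87 ± 0.07.

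Only 43 of 78 listed ribosomal protein genes had a single-gene probe set that passed the filter. Of the 43, 19 fell and 1 rose, with a median of -0.08 that turned to 0.12 with control scaling, where 3 were lower and 0 higher. The 1 that rose, Rps20, was no longer called without 0 h replicate 1, 0 h replicate 2 or 30 h replicate 1 (limma adjusted p = 0.0644, 0.0519 and 0.0693). The 3 largest values came from dimmer probe sets, so the small changes on bright probe sets do not show that these RNAs held their level. Rpl12 changed by -3.94 on the single-gene probe set, from a level of 9.61, but by -0.58 and -0.16 on brighter ones at 12.7 and 13.1 that the annotation assigns to several genes. Rpl14 changed by -1.45 and Rps25 by -1.4 on single-gene probe sets, against -0.10 to -0.23 and -0.14 on the shared ones.

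Most one-carbon genes were lower, while the citric acid cycle and fatty acid oxidation lists, given next, were mixed. The folate and serine pathway supplies single carbons for purines, thymidylate and methionine, and 12 of its 15 tested genes fell, 10 of them at least 2-fold, against 1 that rose (median -1.46, -1.26 with control scaling). Mthfd1l, the mitochondrial enzyme that releases formate, had levels of 10.98, 10.89 and 10.98 at 0 h and 6.78, 6.85 and 7.00 at 30 h. Mthfd1, its partner in the cytosol, stood at 12.85, 12.87 and 12.78 at 0 h and 10.55, 10.54 and 10.67 at 30 h. They fell 16.8-fold and 4.74-fold with no overlap between the groups. Fpgs, which adds the glutamate tail that keeps folate in the cell, and Shmt1, a serine hydroxymethyltransferase, fell, with changes of -2.62 ± 0.12 and -2.07 ± 0.10 (log2, SE). Mthfd2 rose by 0.30 ± 0.06. With the fall of the carrier Slc19a1 given above, lower genes covered uptake, retention and the mitochondrial and cytosolic steps.

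In the citric acid cycle 11 of 21 genes fell and 5 rose, with a median of -0.25 (-0.04 with control scaling, 8 lower and 3 higher). The rises were also 3 without 0 h replicate 1, 0 h replicate 3, 30 h replicate 1 or 30 h replicate 3. Suclg2, the subunit of succinyl-CoA ligase that uses GTP, had levels of 10.19, 10.04 and 10.22 at 0 h and 7.81, 7.77 and 7.76 at 30 h. Sucla2, the subunit that uses ATP, rose by 0.50 ± 0.06, so that the alternative subunits of the same enzyme moved in opposite directions. Idh2 and Idh3a, isocitrate dehydrogenases, fell, with changes of -2.37 ± 0.12 and -1.98 ± 0.06. The fatty acid oxidation list had 6 higher and 6 lower of 18 (6 and 4 with control scaling). Cpt1a, which controls fatty acid entry into mitochondria, and Etfdh, which passes electrons on to the respiratory chain, rose by 1.57 ± 0.09 and 1.55 ± 0.08, and the thiolase Acaa2 fell by 1.41 ± 0.08.

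Among 10 polyamine genes 7 rose and 1 fell (median 0.38), the same counts as with control scaling. The rises were 5 or 6 when 1 array was left out, and 5 with no filter. Azin2 and Smox each lost their call without any 1 of 4 arrays. The falls were 2 without _x_at and _s_at probe sets and 3 with probe sets averaged. The single fall of the main fit was large. Srm, spermidine synthase, had levels of 11.70, 11.61 and 11.68 at 0 h and 8.28, 8.21 and 8.42 at 30 h, a 10.2-fold fall. Sat1, which acetylates polyamines for breakdown and export, rose by 1.54 ± 0.07, and Azin1 and Oaz2, a regulator pair of ornithine decarboxylase, rose by 0.94 ± 0.06 and 0.58 ± 0.10. Odc1 itself had means of 11.15 ± 0.15 at 0 h and 11.23 ± 0.07 at 30 h (SD, n = 3).

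Of 29 genes listed for protein import into the endoplasmic reticulum and glycosylation, 20 fell and 3 rose, with a median of -0.39. Control scaling left 10 lower and 3 higher, with a median of -0.18. Rpn1 and Rpn2, subunits of the oligosaccharyltransferase, fell, with changes of -1.4 ± 0.09 and -1.24 ± 0.07 (log2, SE). Ssr1 and Ssr2, of the translocon-associated complex, fell, with changes of -1.29 ± 0.06 and -1.30 ± 0.10. Sec62 rose by 0.69 ± 0.06. The COPI and COPII coats, which carry proteins between the endoplasmic reticulum and the Golgi, had 6 higher and 6 lower of 21 (5 and 3 with control scaling) and none by 2-fold or more. Copg1 fell by 0.90 ± 0.07 and Sar1b rose by 0.42 ± 0.06.

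DNA repair genes were mostly lower. Of 24 genes of homologous recombination and the Fanconi pathway 18 fell and 2 rose (median -0.79, -0.58 with control scaling, 13 lower). Exo1, the exonuclease that resects DNA ends, had levels of 10.11, 10.12 and 10.09 at 0 h and 7.03, 7.07 and 7.30 at 30 h. Fancb and Rad54b fell, with changes of -2.27 ± 0.09 and -1.87 ± 0.07. Fance rose by 0.59 ± 0.09. The rises on this list were 1 without 0 h replicate 2, 30 h replicate 1 or 30 h replicate 3. Of 18 genes of mismatch and base excision repair 11 fell and 4 rose (median -0.50, -0.30 with control scaling, 8 lower and 2 higher). The rises were also 2 without 0 h replicate 1, 0 h replicate 2 or 30 h replicate 3. Ung, the uracil glycosylase, Msh6, a mismatch sensor, and Pms1 fell, with changes of -1.77 ± 0.07, -1.73 ± 0.08 and -1.65 ± 0.10.

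Some members of the same chromatin gene families moved in opposite directions. Kat2a and Kat2b, the closely related GCN5 and PCAF acetyltransferases, were one such pair. Kat2a had levels of 8.45, 8.23 and 8.50 at 0 h and 5.12, 5.26 and 5.29 at 30 h. Kat2b had levels of 8.98, 8.92 and 8.78 at 0 h and 10.33, 10.21 and 10.20 at 30 h. The groups did not overlap in either gene, with limma adjusted p = 2e-13 and 2.64e-10. Among the class IIa deacetylases, Hdac5 rose by 2.54 ± 0.13 and Hdac7 fell by 2.51 ± 0.11 (log2, SE). Sirt2 and Hdac2, which are not such a pair, rose by 2.55 ± 0.10 and fell by 1.19 ± 0.06. In all 9 of 25 acetyltransferase and deacetylase genes rose and 11 fell, with a median of -0.15 that turned to 0.06 with control scaling (8 higher and 6 lower).

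Of 17 SWI/SNF remodeller genes 10 fell and 5 rose (median -0.33, -0.12 with control scaling, 4 lower and 2 higher). The rises were 3 without 0 h replicate 1 or 0 h replicate 3. Actl6a and Smarcc1 fell, with changes of -1.52 ± 0.06 and -1.43 ± 0.19, and Dpf2 rose by 0.59 ± 0.07. Among 11 linker and variant histone genes 5 rose and 2 fell, and the falls were 1 with control scaling and without 0 h replicate 1, 0 h replicate 3 or 30 h replicate 1. H1f2, a linker histone, had levels of 8.18, 8.27 and 8.68 at 0 h and 10.52, 10.49 and 10.47 at 30 h, and H2aw and H2az2 rose by 1.68 ± 0.10 and 1.23 ± 0.06. Macroh2a1, a variant of silent chromatin, had levels of 9.98, 10.01 and 9.77 at 0 h and 7.11, 7.22 and 7.10 at 30 h, a 6.87-fold fall.

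Mediator, the coactivator complex between transcription factors and RNA polymerase II, had 13 of 32 genes higher and 10 lower (median 0.11), shares near those of all genes. With control scaling 10 were higher and 2 lower, with a median of 0.32. The 6 genes of its kinase module on the list, Cdk19, Med13, Med13l, Ccnc, Cdk8 and Med12, were each called higher, but Med12 not with control scaling (limma adjusted p = 0.0731), nor when 1 array was left out, for 5 of the 6 arrays (0.0509 to 0.138). Cdk19 had levels of 9.19, 9.30 and 9.33 at 0 h and 10.99, 10.82 and 10.94 at 30 h. Med13, Med13l and Ccnc rose by 1.10 ± 0.10, 1.08 ± 0.11 and 0.72 ± 0.09 (log2, SE), and Cdk8 and Med12 by 0.44 ± 0.09 and 0.20 ± 0.09. Med14, the scaffold of the core, and Med18 fell, with changes of -1.78 ± 0.16 and -1.37 ± 0.22. This grouping by module was made after the values were seen. RNA polymerase III genes numbered 9 higher and 8 lower of 20 (8 and 4 with control scaling). Polr3e, a subunit, fell by 2.40 ± 0.07, while Maf1, the repressor of that polymerase, and Brf1, an initiation factor, rose by 1.02 ± 0.07 and 1.01 ± 0.09.

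Most tested genes of the mitochondrial clearance list rose. The list has 14 genes and includes autophagy receptors, and clearance itself was not measured. Of 11 measured, 9 rose, 6 of them at least 2-fold, and 1 fell, with a median of 1.253, and control scaling gave the same counts and a median of 1.46. Calcoco1, an autophagy receptor, had levels of 6.74, 6.93 and 7.07 at 0 h and 10.66, 10.60 and 10.54 at 30 h. Pink1, the kinase that marks damaged mitochondria, had levels of 8.67, 8.76 and 8.81 at 0 h and 11, 11.14 and 11.12 at 30 h. The groups were far apart in both, 12.9-fold and 5.07-fold. The cargo receptors Tax1bp1 and Sqstm1 and the mitochondrial receptor Bnip3 rose by 1.68 ± 0.07, 1.31 ± 0.06 and 1.49 ± 0.14. Phb2, a prohibitin, fell by 0.89 ± 0.07. Of 12 genes linked to chromatin condensation and enucleation 7 rose and 3 fell (6 and 1 with control scaling), none of the rises by 2-fold or more. Cit, citron kinase, rose by 0.93 ± 0.09 and Rb1 by 0.63 ± 0.07.

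Of 15 p53 pathway genes 10 rose and 3 fell (median 0.62, 0.82 with control scaling, 10 higher and 1 lower). Besides Btg2, Trp53inp1, Gadd45a and Sesn1, stress genes that restrain growth, rose by 1.70 ± 0.08, 1.36 ± 0.12 and 1.30 ± 0.12 (log2, SE). Tigar, a brake on glycolysis, fell by 0.95 ± 0.16 at levels under 5. Caspase and apoptosome genes numbered 4 higher and 6 lower of 13, with a median of -0.12 that turned to 0.08 with control scaling (4 higher and 3 lower). Endog, a mitochondrial nuclease, fell by 1.56 ± 0.08, and Birc2, an inhibitor of apoptosis, rose by 0.91 ± 0.09.

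Receptors and their signalling genes moved one by one. Of 24 cytokine and growth factor receptors 11 rose and 6 fell (10 and 3 with control scaling). Igf1r, the insulin-like growth factor receptor, had levels of 8.31, 8.32 and 8.30 at 0 h and 3.95, 3.23 and 3.78 at 30 h. Csf2rb, the beta chain shared by the receptors of interleukin 3, interleukin 5 and GM-CSF, rose by 3.85 ± 0.06. It and Csf2rb2 are close relatives in the mouse, and whether probes of one also read the other was not tested. Epor, the erythropoietin receptor, had means of 10.12 ± 0.07 at 0 h and 10.24 ± 0.06 at 30 h (SD, n = 3) and limma adjusted p = 0.181. Of 25 mTOR and insulin signalling genes 9 rose and 10 fell, and with control scaling 8 were higher and 5 lower (median 0.20). Akt1 had levels of 9.71, 9.53 and 9.60 at 0 h and 8.24, 8.05 and 8.0 at 30 h and fell, while Akt2 had levels of 7.18, 7.06 and 7.13 at 0 h and 8.19, 8.30 and 8.09 at 30 h and rose. Of 8 MAP kinase phosphatases 5 rose and 1 fell. Dusp1 and Dusp16 rose by 1.52 ± 0.08 and 1.34 ± 0.08, and Dusp7 fell by 1.49 ± 0.14.

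Isoforms of ion pumps moved in opposite directions. Atp1b2, a beta subunit of the sodium pump, had levels of 8.66, 8.54 and 8.91 at 0 h and 12.11, 11.85 and 11.93 at 30 h. Atp1b3, another beta subunit, had levels of 9.78, 9.72 and 9.67 at 0 h and 8.95, 8.73 and 8.92 at 30 h. Atp2b4, the plasma membrane calcium pump known from human red cells, rose by 2.39 ± 0.11 (log2, SE), and its relative Atp2b1 fell by 0.95 ± 0.07. P2rx7, an ATP-gated channel, rose by 1.86 ± 0.09. The list had 8 higher and 9 lower of 21, and its median of -0.09 turned to 0.11 with control scaling (7 higher and 6 lower).

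Actin regulators numbered 13 higher and 15 lower of 36 (13 and 8 with control scaling, median 0.21), with the higher share near that of all genes. Lcp1, the leukocyte bundling protein plastin, had levels of 6.02, 5.98 and 6.12 at 0 h and 1.86, 2.71 and 2.0 at 30 h, the latter under the 40th percentile, so that it was at least 6.61-fold lower. Coro1a and Capg, of leukocyte motility, fell, with changes of -3.47 ± 0.15 and -3.15 ± 0.11. Tmod3, a tropomodulin, had levels of 8.44, 8.26 and 8.30 at 0 h and 10.36, 10.37 and 10.38 at 30 h, and Add1 and Add2, the adducins that cap actin in the red cell membrane skeleton, rose by 1.67 ± 0.06 and 2.0 ± 0.07. Of 28 kinesins 10 rose and 11 fell (11 and 8 with control scaling). Kif21b fell by 3.6 ± 0.18 and Kif3b rose by 1.12 ± 0.08.

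The remaining lists were mixed. MHC class I and antigen processing had 6 higher and 6 lower of 16. The rises were 4 without 0 h replicate 2 or 30 h replicate 3, and 7 without 30 h replicate 1. Psmb10, an immunoproteasome subunit, fell by 2.36 ± 0.07, and H2-K1, a classical class I gene, rose by 0.68 ± 0.11. Clock genes had 4 higher and 4 lower of 13 (4 and 3 with control scaling). Per2, a repressor of the clock, fell by 1.70 ± 0.12, and Clock, one of its activators, rose by 0.91 ± 0.06. Nuclear receptors had 8 higher and 3 lower of 23, and 5 and 4 without 0 h replicate 2. Ppard, a lipid sensor, rose by 1.88 ± 0.11, and Nr3c1, the glucocorticoid receptor, fell by 1.43 ± 0.11.

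Since the inducer is itself a hormone, textbook estrogen targets of other tissues were listed. Of 7 tested 6 rose and 0 fell (median 0.50). Control scaling, which raised the median change of all genes, gave the same counts. Without 30 h replicate 2 the rises numbered 3 and without 0 h replicate 1 they numbered 4. Xbp1 had levels of 9.19, 9.18 and 9.43 at 0 h and 10.27, 10.41 and 10.37 at 30 h and Ctsd, cathepsin D, had levels of 9.96, 9.89 and 9.97 at 0 h and 11.01, 10.97 and 10.98 at 30 h. The other 4 called genes, Tff1, Igfbp4, Ltf and Esr1, had means under 5.5 and rose by between 0.42 and 0.71. Of all tested genes with a mean level under 5, 32.7% rose and 10.3% fell, with a median change of 0.21. Tff1 and Ltf were no longer called without 0 h replicate 1 (limma adjusted p = 0.0517 and 0.0995), and Tff1, Ltf and Esr1 without 30 h replicate 2 (0.0541, 0.0958 and 0.0524). Xbp1 and Ctsd also respond to stimuli other than estrogen, and the part of estrogen in these rises was not tested.

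The cells kept the markers of their label. Of 8 tested erythroid markers 5 rose and 0 fell, with a median change of 0.51. Their summed log2 level went from between 70.9 and 71.1 per array at 0 h to between 85.8 and 86.3 at 30 h. Most of that gain came from Alas2 and Slc4a1, described above, the only 2 of these markers that rose at least 2-fold. Tfrc, Klf1 and Ermap had 0 h means of 12.46, 11.31 and 11.90. Among 6 tested mast cell and basophil markers 1 rose and 3 fell, with sums of 29.9 to 30.9 at 0 h and 20.4 to 21.5 at 30 h. Among 6 megakaryocyte markers 2 rose and 2 fell (sums 35.8 to 36.5, then 32.2 to 32.5). Granulocyte and macrophage markers had 2 higher and 1 lower of 4 (sums 15.02 to 16.47, then 15.83 to 16.40), and lymphoid markers 2 higher and 0 lower of 5 (sums 18.1 to 19.2, then 18.8 to 19.9). The tested genes of these last 2 lists all had means under 5.6. These small counts moved with single arrays. Without 30 h replicate 3 lymphoid markers had 2 lower, and granulocyte and macrophage markers 1 higher, as they also had without 0 h replicate 2. Mast cell and basophil markers had 2 higher without 30 h replicate 1 and 0 without 30 h replicate 2. The part of these other lineages' markers in the changes above was not tested.

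**Figure D3:**
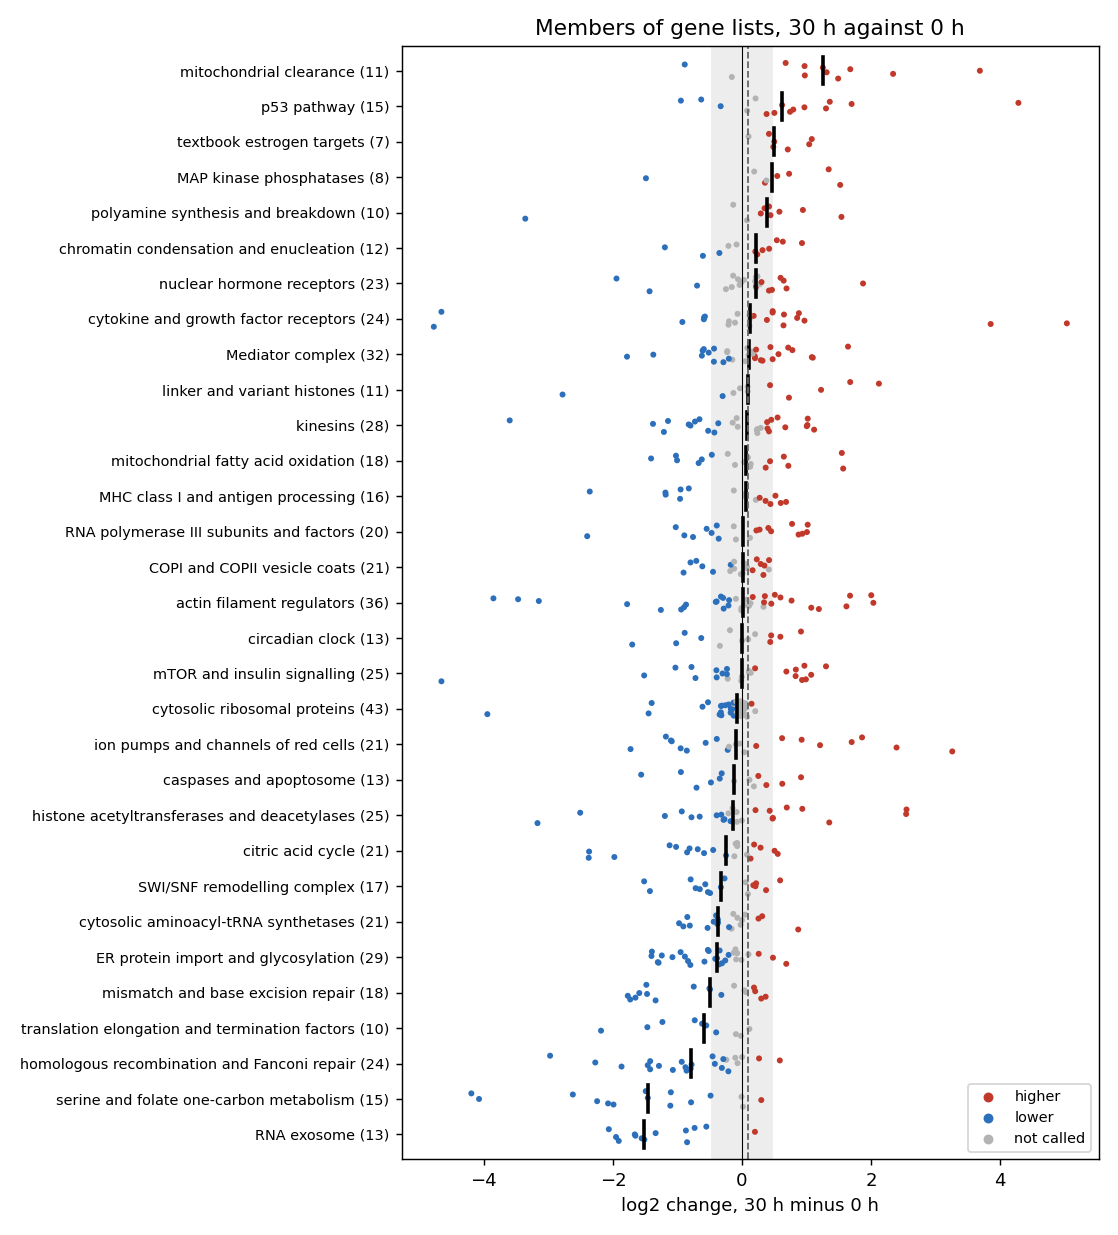
Log2 change from 0 h to 30 h of each tested gene (points, coloured by call) in the 31 lists, with the median of each list as a black bar, the median of all tested genes (0.09) as a dashed line and their quartiles (-0.46 and 0.46) as the edges of the grey band. The RNA exosome and one-carbon lists lie mostly below 0 and the mitochondrial clearance list mostly above, while many lists spread to both sides.

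Much of the change came after 14 h. Between 14 h and 30 h, 3556 genes were higher (27.9%) and 3596 lower (28.3%) by the same test, which uses the same 30 h arrays as the comparison with 0 h. Of the 267 rises of at least 4-fold, 248 were also higher at 30 h than at 14 h, and of the 516 such falls 481 were also lower. The share of the whole change that came after 14 h had a median of 43.3% for the rises (quartiles 31.0% and 60.2%) and 61.6% for the falls (quartiles 43.4% and 73.1%). This difference was not tested. Car1 changed by -1.23 by 14 h and by -5.01 after it, whereas Csf2rb2 had risen by 4.21 by 14 h and rose by 0.82 after it. Among the lists, 22 of 24 recombination and Fanconi genes and 22 of 29 import genes of the endoplasmic reticulum were lower at 30 h than at 14 h, and 14 of 15 one-carbon genes.

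A comparison of the end points misses genes that moved and came back. Over all 6 times 9389 genes (73.8%) changed by limma's F test, and 1033 of these were not called at 30 h and differed from 0 h by less than 0.2. In 31 of the 1033 the time means spanned at least 1 log2 unit. Ajuba, a LIM domain adaptor, had mean levels of 3.23, 6.84, 7.46, 5.77, 4.53 and 3.35 at 0, 3, 7, 14, 21 and 30 h. Socs3, a feedback inhibitor of cytokine signalling, went the other way, at 5.15, 3.15, 3.81, 3.72, 5.05 and 5.11. Cbfa2t3, the ETO2 corepressor that works with TAL1 and GATA1, dipped and recovered, at 10.69, 9.26, 9.90, 10.36, 10.37 and 10.65. Their 30 h arrays overlapped their 0 h arrays, with differences of 0.12, -0.04 and -0.04. With its probe sets averaged, Cbfa2t3 was called lower at 30 h (-0.22, limma adjusted p = 0.0205).

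H3f3b, a gene of replacement histone H3.3, stood at 6.08, 6.68, 7.55, 7.38, 6.65 and 6.16 in the same order. Ninj1, which acts in plasma membrane rupture, stood at 9.27, 8.24, 8.56, 8.13, 7.90 and 9.21. Psen2, a presenilin, and Pkp2, a plakophilin, both peaked at 3 h, at 8.96 and 10.20, and ended at 7.90 and 9.30 against 7.84 and 9.47 at 0 h. These end points did not hold as uncalled throughout. Pkp2, at -0.18, was called lower with the replicate block (limma adjusted p = 0.0443), the 60th percentile filter (0.0459) and the other variance model (0.0389), and at -0.23 without 30 h replicate 1 (0.031). Psen2 was called higher with its probe sets averaged (0.36, limma adjusted p = 0.00014). Ppm1k, a mitochondrial phosphatase of branched-chain amino acid breakdown, had its highest mean at 3 h, 5.13. A p that misses the threshold does not show that the end points were equal, and the SE of these 8 differences ran from 0.0711 to 0.388.

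**Figure D4:**
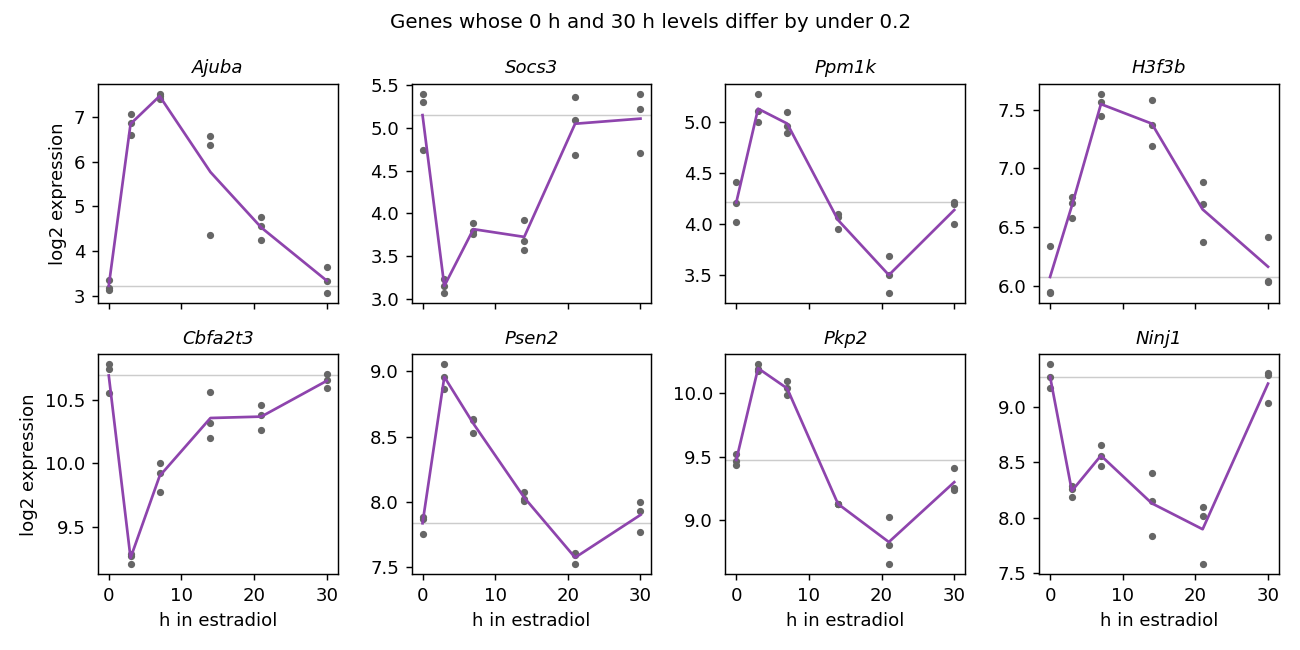
Log2 expression against hours in estradiol for the 8 genes with the widest range of time means among those whose 0 h and 30 h levels differed by under 0.2 and were not called, with each array as a point and a line through the time means. Ajuba and H3f3b rise and return, and Socs3 and Cbfa2t3 fall and return.

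Different probe sets of a gene did not always tell the same story. Of 5955 genes with 2 or more tested probe sets, 2774 (46.6%) had all of them called in 1 direction and 2240 (37.6%) had some called in 1 direction and the others not. In 525 (8.82%) none was called, and in 416 (6.99%) probe sets were called in opposite directions. The widest gap belonged to Mtm1, the myotubularin phosphatase. One of its probe sets had levels of 7.10, 7.52 and 7.51 at 0 h and 9.35, 9.24 and 9.24 at 30 h, a rise of 1.90 ± 0.11 (log2, SE). Another had 11.45, 11.48 and 11.29 at 0 h and 6.73, 6.79 and 6.29 at 30 h, a fall of 4.80 ± 0.13. In Dusp12, Txlng, Pigb, Srr and Pacc1 the opposing changes were 1.36 and -2.0, 0.70 and -2.52, 1.65 and -1.56, 2.0 and -1.13, and 0.98 and -2.03. Probe sets of a gene can read different transcript ends or isoforms, which the annotation used here does not separate, so a gene's call is that of the probe set that reads it.

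**Figure D5:**
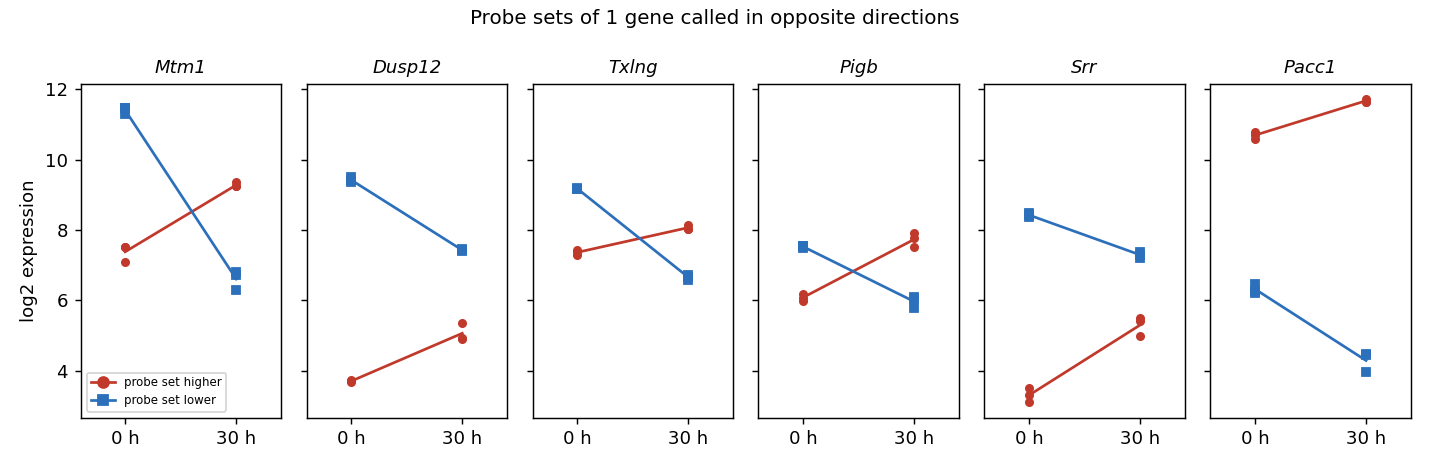
Log2 expression on the 3 arrays at 0 h and the 3 at 30 h for 2 probe sets each of 6 genes, 1 called higher and 1 called lower at 30 h. In every gene the line of one probe set goes up and that of the other goes down, with the widest gap in Mtm1 (1.90 up and 4.80 down).

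Promoters of the changed genes were searched for short motifs on both strands, in windows of 250 bases before to 50 after the RefSeq start. The GATA letters AGATAA or TGATAA were present in 18.6% of all 32851 promoters in the table and in 10.8% of the 12978 promoters of tested genes. Their share was 13.3% for rises of at least 2-fold, 10.2% for falls of that size and 12.03% for tested genes not called. For changes of at least 4-fold it was 17.9% for rises and 13.9% for falls. The letters CCNCNCCC, bound by KLF factors and overlapping GC boxes, were in 66.8% of tested promoters, 73.4% of those of 2-fold rises and 66.8% of those of 2-fold falls. Shares for the E-box CACGTG were 9.58%, 12.73% and 10.01%, for the E2F letters TTTCCCGC or TTTGGCGC 2.75%, 2.01% and 3.97%, and for CCAAT 37.7%, 42.7% and 35.7%, in the same order. Of the 15 largest rises 13 had a promoter entry and 3 of these held GATA letters, against 0 of 10 among the falls. These are descriptions of letters, with no test, and a match is not a bound site.

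Changes were spread over the genome. By chromosome the share of genes that rose ran from 30.3% on chromosome 10 to 39.1% on chromosome 11, and the share that fell from 28.8% on chromosome 7 to 38.9% on chromosome 10. A measure of RNA quality differed between the groups. The gap between 3′ and 5′ probe sets of control transcripts was wider at 30 h, with means of 1.89 and 2.20 log2 units for Actb, 1.13 and 1.52 for Gapdh, 1.79 and 2.41 for Tfrc and 1.77 and 2.60 for Pcx at 0 h and 30 h, and the 3 arrays of the times did not overlap for any of them. The part of this difference in the changes above, those of probe sets far from the 3′ end included, was not tested.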

How the data were processed

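Total RNA of G1E-ER4 cells was labelled with biotin and hybridised to Affymetrix arrays, per the labels' protocols. The authors deposited a log2 value for each probe set on every array. Probe summary, background correction and scaling were not given in the sources used here. Medians of the 18 arrays lay between 4.04 and 4.09, so a common scale had been set before deposit. The number of arrays limits how precise any value is.

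Groups were taken from the array titles. Single-gene probe sets above the 40th percentile of the array on 3 or more arrays were tested with limma 3.58.1 in R 4.3.3 (lmFit and eBayes, a mean per time over all 18 arrays, 12 residual degrees of freedom, 2-sided, Benjamini-Hochberg over all probe sets tested, threshold 0.05). A gene was read by its brightest tested probe set, and genes were named through the platform annotation. The members and lists were chosen with earlier results of these data known. Named genes were the 15 largest rises and falls with non-overlapping arrays and means of at least 5, the genes that crossed from under the 40th to over the 70th percentile or back (up to 8 each), up to 4 called members per list with the largest changes, 8 that returned, 6 with opposing probe sets and the 8 brightest called, without clone names; other list members were named after their values were seen. The test was tried on simulated data in which 200 of 23632 probe sets were changed, and it called 26% of changes of 1.25-fold, 72% at 1.5-fold, 98% of those of 2-fold and 100% at 4-fold, with 12 false calls. In the data a far larger share was called, 8090 probe sets higher and 8293 lower. The adjustment depends on that share, so the simulated rates do not carry over to the data. No 2 arrays were identical (0 pairs). Alternatives were 3 scalings, 2 filters, other probe set choices, the 6 arrays alone, another variance model, a replicate block, a minimum fold and leaving out each array. Motif windows came from the RefSeq table on GRCm38.p6.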

Additional observations from a re-analysis of the deposited data

How the results depend on the processing

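Every called direction of the recomputed named genes held under the alternatives run, except for Rplp2 and Rps20. The recomputed genes leave out list members that were named after their values were seen. Of 2956 recomputed named changes 2931 kept their side of the threshold, and the called ones among them kept direction. For changes called in neither fit, direction was not part of this count. Rplp2 turned to 0.0312 with control scaling, and Rps20 from 0.15 to -0.82 (limma adjusted p = 3.54e-08) when all its probe sets were averaged, since its other 3 probe sets include larger falls. Control scaling also ended the calls of Pebp1, Rps18, Rps20, Sephs2, Ran, Selenow, Rps6, Sec31a and Kmt5a. Of the list members left out, Exosc9 and Med12 also lost their calls with control scaling (limma adjusted p = 0.078 and 0.0731). Control scaling moved lower probe sets to 5146 and lower genes to 2546, and the cause was not tested. Requiring 2-fold gave 2265 higher and 3288 lower probe sets, and 1165 and 1664 genes, by construction. Leaving out 1 array gave 7402 to 7933 higher and 7846 to 8224 lower probe sets, and 4160 to 4612 and 3978 to 4080 genes. The replicate block gave 8113 and 8271 probe sets, and 4637 and 4158 genes. The numbers were not taken to pair arrays, since the labels do not say that they do. Deviations of same-numbered arrays at 0 h and 30 h correlated at 0.0773, 0.108 and 0.210. Those of differently numbered arrays correlated at -0.2245 to 0.0962. Of the 6 arrays 5 correlated best with the array of their own number, a hint from the data and not from the design. Of 607 recomputed list medians 100 moved by more than the spread between replicates. Leaving out _x_at and _s_at probe sets turned the mast cell median from -0.55 to 0.04. The 60th percentile filter turned those of circadian genes and kinesins to -0.26 and -0.08, and averaging probe sets that of RNA polymerase III to -0.17. The number of arrays limits the precision, and probe sets above the 40th percentile on fewer than 3 arrays were not tested.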
